A study of Homo sapiens with 12 samples.

Results

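Lysosomal genes were followed in A375, an established human melanoma cell line, through treatment with ciclopirox, an antifungal compound that binds iron, and crizotinib, a kinase inhibitor whose targets include MET and ALK. The set holds 50 genes chosen by function, with earlier results of these data known. They encode lysosomal membrane proteins, hydrolases, sulphatases, lipid-handling proteins, subunits of the vacuolar proton pump (V-ATPase), and the transcription factors TFEB and TFE3. Their counts beside those of all genes are therefore a description. All cells were A375, and the 5 groups differed in agent and time. The control group received the vehicle DMSO (n = 2), and the other groups received ciclopirox for 8 h (n = 3) or 24 h (n = 2) or crizotinib for 8 h (n = 3) or 24 h (n = 2), each drug at the concentration that gave 75% inhibition after 72 h. No time is labelled for the controls, so the same 2 control arrays served both times, and the 4 comparisons with control share them. Nothing in the labels says that replicates were separate cultures, so p-values reflect how much these arrays vary, and that variation may be technical.

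Of the 50 genes, 46 had a named probe in the table of the authors' normalized intensities, and 44 were tested, because 2 or more of the 12 Illumina bead arrays detected a probe (detection p-value under 0.01). CD63, CTSS, TPP1 and GALNS are not analysed here, and the probes of CTSO and TFEB were detected on no array. Of the 44 tested members, 41 were detected on all 12 arrays, and the exceptions were GAA and ARSA (11 arrays each) and IDUA (5 arrays). In all, 10330 genes were tested, of which 8514 were detected on all arrays. Levels are log2 of the normalized intensity, changes are differences of group means on that scale, and a gene is called higher or lower when the adjusted p-value from limma, a linear model fitted across all tested genes, is under 0.05. A level of 5.33 marks the background, the 99th percentile of probes detected on no array.

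The arrays had nearly equal median intensities over all probes, from 28.31 to 29.6, which lie below the background intensity of 40.3. The share of probes above background was also similar, from 37.9% to 38.5%. In values normalized between arrays, a change in a cell's total RNA would not show. The deposited scanner signals carried other column names than this table. Each of the table's columns followed 1 scanner column closely (Pearson r between 0.928 and 0.979, with no other column above 0.833), but that column bore the name in the sample's own description for 2 of 12 arrays. Every one of the 12 arrays was nearest to an array of its own group under the table's names, and 7 of 12 were under the descriptions. With scanner signals named by the descriptions, no member was called by limma in 7 of the 9 comparisons made below, and the exceptions were both at 8 h, with 2 members called between ciclopirox and control and 17 between the drugs. In that naming the median member change at 24 h of crizotinib was -0.14. Groups lay in blocks on the chip under either naming, so chip position and treatment cannot be told apart. The results below use the table's names, as the rule for the members sets.

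The lysosome is the acidic compartment in which cells break down proteins, glycans, lipids and worn organelles. The V-ATPase pumps protons into it, the hydrolases work at the resulting low pH, and heavily glycosylated membrane proteins line it and carry the products out. Many of these genes share a short promoter element, the CLEAR motif, an extended E-box bound by TFEB, TFE3 and MITF when these factors enter the nucleus. In pigment cells MITF also binds a related element, the M-box, and lysosomes share much of their protein content with melanosomes.

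The promoter windows of the members are shown for these elements, since they are the sequence feature that the set is known for. For the same reason the shares below are a description and not independent evidence. RefSeq windows (build GRCh38.p14) from 250 bases before to 50 bases after the annotated start were found for 34 of the 50 members, 49 windows in all, and both strands were searched. The palindromic CLEAR core TCACGTGA lay in a window of 7 members (20.6%), against 1.18% of the 27305 genes with a window and 0.98% of all 35116 windows. Its 7-base form TCACGTG, which the 8-base core contains, lay in 11 members (32.4%), against 4.49% of all genes and 3.71% of all windows. The bare E-box CACGTG, contained in both, was found in 12 members (35.3%), against 8.77% of all genes and 7.26% of all windows. The M-box TCATGTG, which overlaps none of these, was found in 5 members (14.7%), against 3.59% of all genes and 2.92% of all windows. A match is a string of letters and not a demonstration of binding.

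The 7-base E-box was counted at 21 distinct positions in 11 members, 10 of them with the full 8-base core, and all 21 began before an annotated start. Stretches are given for the 8 members with this match that were called higher at 24 h of crizotinib. They run 5′ to 3′ on the gene's own strand, with the match in capitals and up to 20 bases on either side. Among these 8, NEU1 and CTSF carry the match farther from the start (127 and 123 bases before it), and the others carry it within 77 bases. ARSB, which was not called, has its match 160 bases before the start, and GALNS, not analysed, has matches at 175 and 33. LAMP1, not called, is shown whole below. CTSA, CLN3, GAA and MCOLN1 hold 2 matches each, and the copy farther from the start is the one in capitals. The other copy is the full 8-base core in all 4, including CTSA, where it lies 26 bases before the start and can be read in lower case near the end of the stretch, and CLN3, where it lies 2 bases before the start.
NEU1, chr6:31862922-31862968, minus strand: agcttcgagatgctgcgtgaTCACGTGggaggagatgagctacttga
CTSF, chr11:66568703-66568749, minus strand: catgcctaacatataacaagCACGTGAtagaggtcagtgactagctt
CTSD, chr11:1763948-1763994, minus strand: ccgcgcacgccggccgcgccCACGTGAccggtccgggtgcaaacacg
CTSA, chr20:45891272-45891318, plus strand: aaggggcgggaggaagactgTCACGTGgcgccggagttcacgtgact
GAA, chr17:80101484-80101531, plus strand: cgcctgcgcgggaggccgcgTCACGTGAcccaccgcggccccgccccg
CLN3, chr16:28492078-28492124, minus strand: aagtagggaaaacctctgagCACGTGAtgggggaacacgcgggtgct
MCOLN1, chr19:7522562-7522609, plus strand: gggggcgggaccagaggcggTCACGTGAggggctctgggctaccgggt
ATP6V0D1, chr16:67481190-67481237, minus strand: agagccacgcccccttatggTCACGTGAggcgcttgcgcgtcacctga

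GPNMB and LAMP1 are shown whole over the 250 bases before the start, because GPNMB was the member with the largest change and LAMP1 the member with the most matches. GPNMB, a transmembrane glycoprotein of melanosomes and lysosomes, has no E-box of the 3 forms in its window and 2 copies of the M-box, 123 and 62 bases before the start. LAMP1, an abundant lysosomal membrane protein, has 6 copies of the 7-base E-box in its window, of which the 5 that end before the start are in capitals.
GPNMB, chr7:23246525-23246774, plus strand: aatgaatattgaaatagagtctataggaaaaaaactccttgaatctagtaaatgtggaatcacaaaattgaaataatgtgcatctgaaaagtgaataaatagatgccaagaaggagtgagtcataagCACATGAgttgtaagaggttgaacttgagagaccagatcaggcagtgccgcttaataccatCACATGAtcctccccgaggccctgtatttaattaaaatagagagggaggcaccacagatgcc
LAMP1, chr13:113296989-113297238, plus strand: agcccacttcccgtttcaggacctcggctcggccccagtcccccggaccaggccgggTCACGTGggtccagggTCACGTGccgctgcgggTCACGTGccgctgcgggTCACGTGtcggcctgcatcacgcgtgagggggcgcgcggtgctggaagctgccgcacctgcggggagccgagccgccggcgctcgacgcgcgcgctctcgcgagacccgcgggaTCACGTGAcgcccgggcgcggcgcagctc

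**Figure D1:**
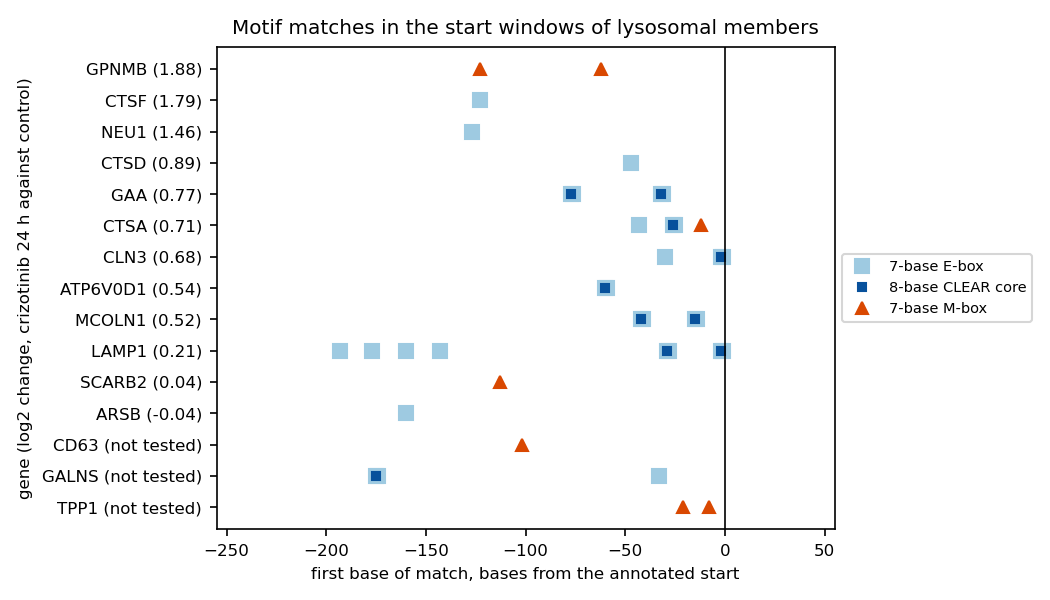
Positions of motif matches in the start windows of the 15 members that hold one, as bases from the annotated start (x axis); each row is a gene with its log2 change at 24 h of crizotinib against control in brackets. Light squares are 7-base E-boxes, dark squares 8-base CLEAR cores and triangles M-boxes; LAMP1 has 6 E-box matches and a change of 0.21, and GPNMB has no E-box match, 2 M-box matches and a change of 1.88.

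After 24 h of crizotinib, members of each role other than the transcription factors were called higher than in control, with GPNMB, CTSF, NEU1, CD68 and NPC1 changed most. Of the 44 tested members, 26 were called higher and 1, the galactosidase gene GLA, was called lower (limma), while 15.5% of all tested genes were called higher and 15.5% lower. The median member change was 0.50, against 0.01 for all genes, and 42 of 44 changes were positive. Over the members detected on all arrays, which could not have passed the filter through the treated group alone, 24 of 41 were called higher and 1 lower with a median of 0.48, beside 16.3% and 17.7% of the 8514 genes detected on all arrays. In these bulk samples, more RNA per cell and more cells of a kind cannot be told apart. Leaving out 1 array at a time gave 21 to 27 called members, and 20 of the 27 were called in every such fit. On the added scaling of the scanner signals over all probes, which was chosen after seeing the data and moved the median of all genes to -0.18, the member median was 0.20. Limma then called 17 members higher and 1 lower, beside 7.84% and 28.8% of all genes.

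**Figure D2:**
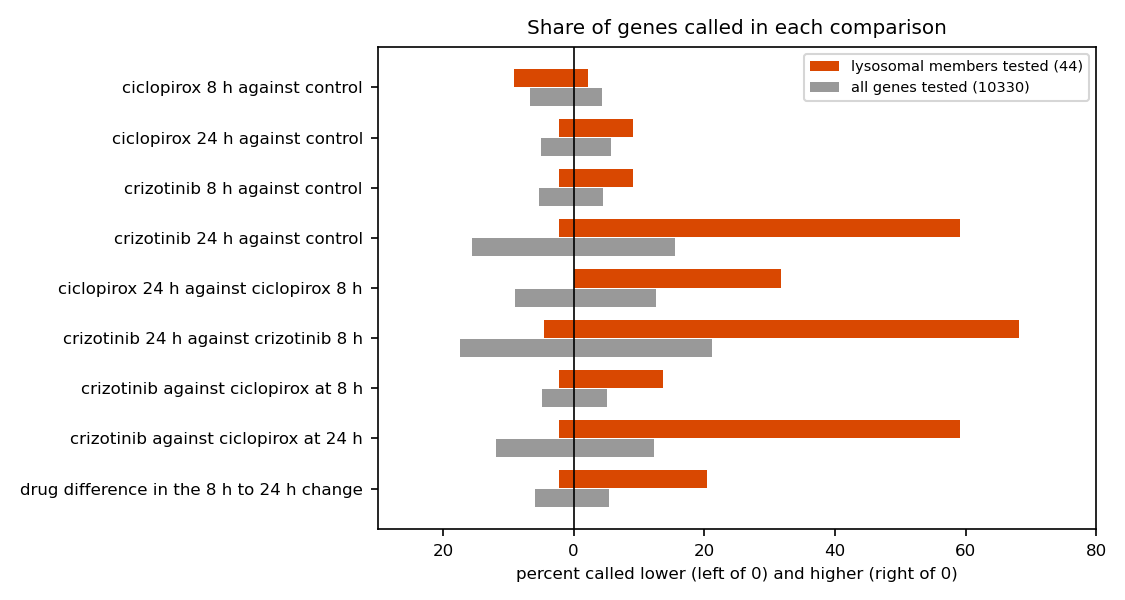
Percent of the 44 tested lysosomal members (orange) and of all 10330 tested genes (grey) that limma called higher (right of 0) or lower (left of 0) in each of the 9 comparisons. The orange bars reach farthest to the right for crizotinib at 24 h, against control, against 8 h and against ciclopirox, where 26, 30 and 26 of 44 members were called higher.

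**Figure D3:**
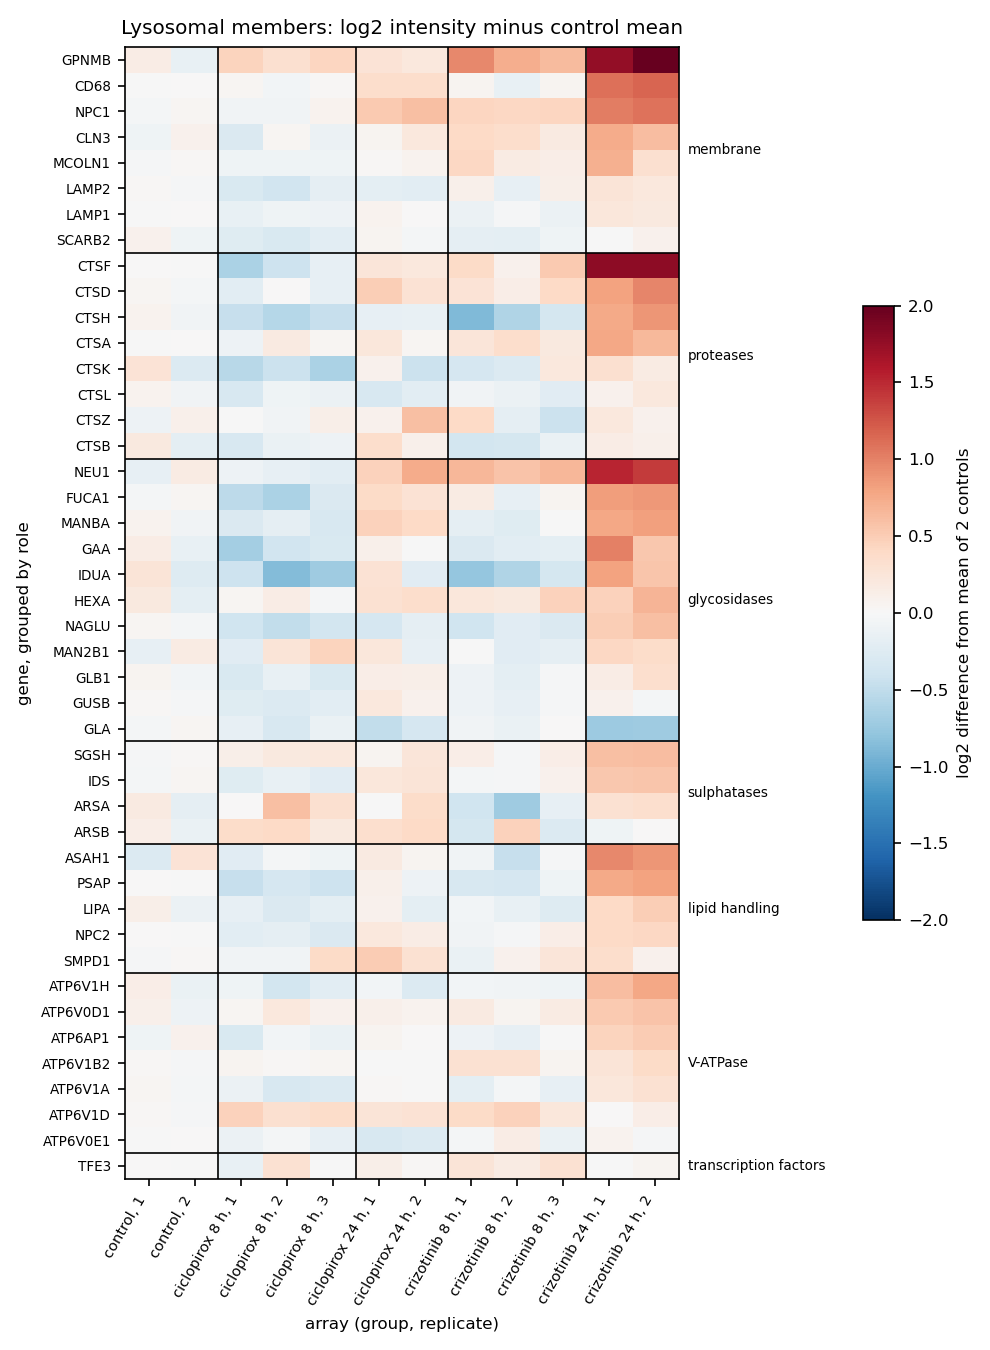
Log2 level of each tested member (rows, grouped by role and ordered by the change at 24 h of crizotinib) on each of the 12 arrays (columns), minus the mean of the 2 controls; red is higher and blue lower, on a scale cut at 2 in either direction. The 2 columns of crizotinib at 24 h are red in nearly all rows, with GLA blue, while the 8 h columns of ciclopirox are blue in most rows.

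Among the membrane proteins, 5 of 8 tested members were called higher at 24 h of crizotinib and none was called lower. GPNMB had the largest change of the set. Its level was 8.45 and 8.17 on the control arrays, 8.76, 8.63 and 8.74 at 8 h and 8.58 and 8.52 at 24 h of ciclopirox, and 9.27, 9.04 and 8.94 at 8 h and 10.07 and 10.31 at 24 h of crizotinib. The crizotinib arrays lay above all other arrays, those of 24 h highest, and no drug group overlapped the controls. With ciclopirox, however, GPNMB was not called against control at 8 h (0.40) or 24 h (0.24). Against control GPNMB was 1.88 higher (SE 0.14, 3.67-fold, adjusted p = 1.06e-05, limma) at 24 h of crizotinib, and a second GPNMB probe rose by 1.86.

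CD68, a glycosylated endosomal and lysosomal protein widely used as a macrophage marker, had levels of 8.79 and 8.79 in control, 8.83, 8.74 and 8.80 at 8 h and 9.15 and 9.15 at 24 h of ciclopirox, and 8.84, 8.64 and 8.84 at 8 h and 9.90 and 9.95 at 24 h of crizotinib. The 8 h arrays overlapped control with either drug, and the 24 h arrays stood above it, those of crizotinib well above those of ciclopirox. The change at 24 h of crizotinib was 1.13 (SE 0.09, adjusted p = 1.93e-05, limma). Among 12 macrophage marker genes other than CD68, 11 had a probe, and the defining markers PTPRC, TYROBP, CD163, LYZ and MRC1 were detected on no array. The summed intensity of the list was 924.4 to 1010.1 in control and 927 to 1043.3 at 24 h of crizotinib, and the ranges overlapped. At 24 h of ciclopirox, where CD68 also stood above control, the sum was 1116.4 to 1229.9, above control without overlap. The part of these genes in the CD68 values was not tested. Of the 4 genes of the list that were tested, CD14 was called higher at 24 h of crizotinib (adjusted p = 0.00583, limma) and none lower. Both control arrays were below background for CD14, at 5.09 and 4.87 against 5.68 and 5.73 at 24 h of crizotinib, so its rise is a bound of at least 1.30-fold.

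NPC1, the membrane protein that exports cholesterol from the lysosome, had levels of 8.76 and 8.84 in control, 8.73, 8.74 and 8.87 at 8 h and 9.32 and 9.40 at 24 h of ciclopirox, and 9.23, 9.22 and 9.23 at 8 h and 9.83 and 9.88 at 24 h of crizotinib. Ciclopirox at 8 h overlapped control, and the other 3 groups lay above it without overlap. The change at 24 h of crizotinib was 1.05 (SE 0.09, adjusted p = 2.12e-05, limma). CLN3, the membrane protein lost in juvenile Batten disease, was 0.68 higher (adjusted p = 0.00285) and MCOLN1, a lysosomal calcium channel, 0.52 higher (adjusted p = 0.0144, limma). MCOLN1 was not called without control 1, control 2 or array 1 of crizotinib at 24 h, with an adjusted p of up to 0.122.

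The structural membrane proteins showed smaller values. LAMP1 had levels of 11.93 and 11.96 in control and 12.18 and 12.14 at 24 h of crizotinib, a change of 0.21 that was not called (adjusted p = 0.0678, limma), although the arrays did not overlap. LAMP2, which also takes part in chaperone-mediated autophagy, had a change of 0.24 on its brightest probe (adjusted p = 0.135). Its other 5 detected probes gave 0.26 to 0.61, and 2 of them passed in a limma fit over all probes (0.61, adjusted p = 0.00354, and 0.46, adjusted p = 0.0151). SCARB2, the receptor that carries glucocerebrosidase to the lysosome, had a change of 0.04.

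**Figure D4:**
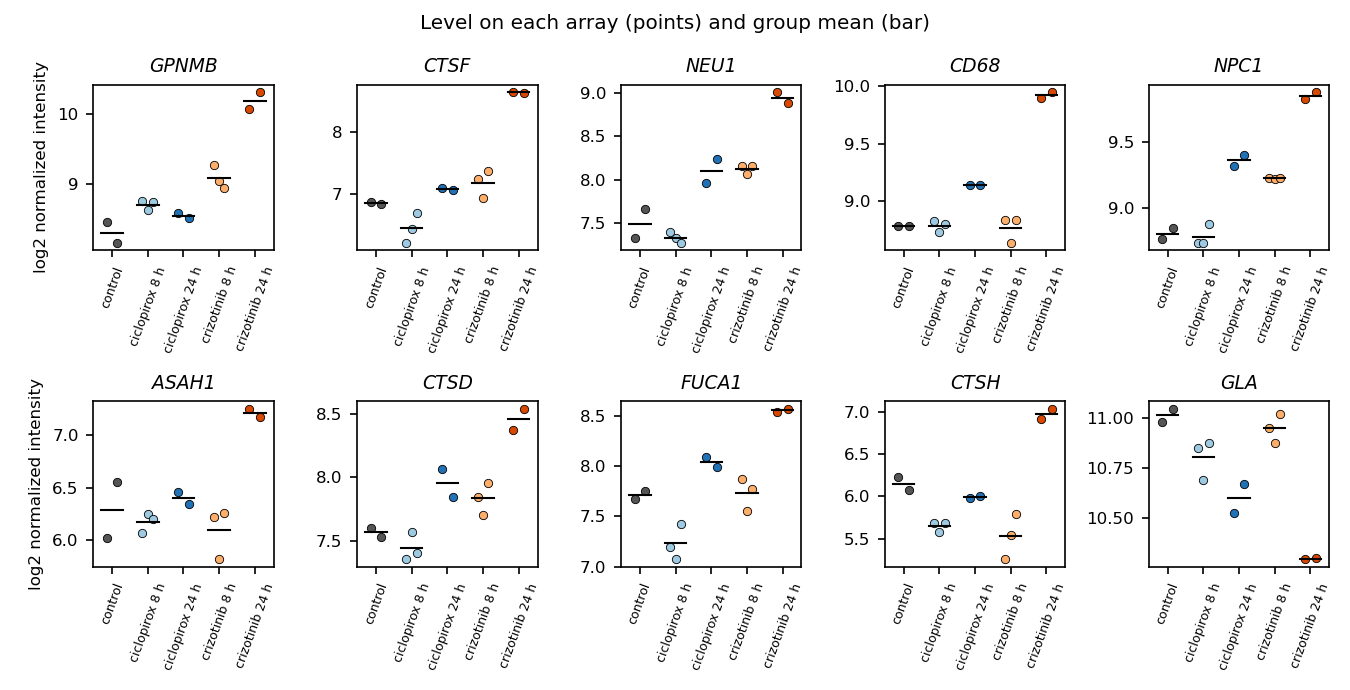
Log2 normalized intensity on each array (points) with the group mean (bar) for the 9 members with a called change of at least 0.8 against control in any drug group, and for GLA; the y axes differ between panels and do not start at 0. In the 9 panels before GLA, the 2 arrays of crizotinib at 24 h are the highest of the 12, and in the GLA panel they are the lowest.

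Of the proteases and their protective protein, 4 of 8 tested members were called higher at 24 h of crizotinib. CTSF, a cysteine cathepsin, had levels of 6.86 and 6.83 in control, 6.21, 6.43 and 6.68 at 8 h and 7.09 and 7.05 at 24 h of ciclopirox, and 7.24, 6.93 and 7.37 at 8 h and 8.64 and 8.63 at 24 h of crizotinib. The 24 h crizotinib arrays stood apart from the rest, and the 8 h ciclopirox arrays were the lowest. The change from control was 1.79 (SE 0.16, 3.45-fold, adjusted p = 3.37e-05, limma).

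CTSD, the main aspartic protease of the lysosome, had levels of 7.60 and 7.53 in control, 7.35, 7.57 and 7.40 at 8 h and 8.06 and 7.85 at 24 h of ciclopirox, and 7.85, 7.71 and 7.96 at 8 h and 8.37 and 8.54 at 24 h of crizotinib. The 24 h crizotinib arrays were again the highest, with a change of 0.89 (SE 0.12, adjusted p = 0.00038, limma). CTSH, an aminopeptidase, took another course, at 6.23 and 6.07 in control, 5.69, 5.58 and 5.69 at 8 h and 5.98 and 5.999 at 24 h of ciclopirox, and 5.26, 5.55 and 5.79 at 8 h and 6.91 and 7.04 at 24 h of crizotinib. It lay below control at 8 h of either drug and above control at 24 h of crizotinib, where the change was 0.82 (SE 0.15, adjusted p = 0.00211, limma).

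CTSA, which protects the sialidase NEU1 and beta-galactosidase from degradation, was 0.71 higher (SE 0.11, adjusted p = 0.00111, limma). The cathepsins CTSB (0.12), CTSK (0.24), CTSL (0.15) and CTSZ (0.15) had values that were not called at 24 h of crizotinib. CTSB, CTSK and CTSZ overlapped control on the arrays, and CTSL did not.

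Of the 11 glycosidases, 7 were called higher and 1 lower. NEU1, the sialidase that removes terminal sialic acid from glycoproteins, had levels of 7.32 and 7.66 in control, 7.39, 7.32 and 7.27 at 8 h and 7.96 and 8.23 at 24 h of ciclopirox, and 8.15, 8.06 and 8.16 at 8 h and 9.01 and 8.89 at 24 h of crizotinib. Ciclopirox at 8 h overlapped control, and the other groups lay above it. The change at 24 h of crizotinib was 1.46 (SE 0.13, 2.75-fold, adjusted p = 3.1e-05, limma).

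FUCA1, the fucosidase, had levels of 7.67 and 7.76 in control, 7.20, 7.07 and 7.42 at 8 h and 8.09 and 8.00 at 24 h of ciclopirox, and 7.87, 7.55 and 7.77 at 8 h and 8.54 and 8.57 at 24 h of crizotinib. It lay below control at 8 h of ciclopirox and above it at 24 h of either drug, with a change of 0.84 (SE 0.13, adjusted p = 0.000949, limma) at 24 h of crizotinib. MANBA, the beta-mannosidase, was 0.79 higher (adjusted p = 0.000289) and GAA, the acid alpha-glucosidase that degrades glycogen, 0.77 higher (adjusted p = 0.00603, limma). GAA was not called without control 2 or without array 1 of crizotinib at 24 h, with an adjusted p of up to 0.0549.

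HEXA, a subunit of beta-hexosaminidase, was 0.57 higher (adjusted p = 0.013) and NAGLU, a heparan sulphate enzyme, 0.55 higher (adjusted p = 0.00228, limma). IDUA, which also acts on heparan sulphate, was near background, at 5.71 and 5.18 in control, with 1 of 2 arrays above it, and 6.25 and 6.004 at 24 h of crizotinib. Its change of 0.68 (adjusted p = 0.0454, limma) was lost in 5 of the 12 fits that left out 1 array, those without control 2, array 3 of ciclopirox at 8 h, array 2 of crizotinib at 8 h, or either array of crizotinib at 24 h (adjusted p up to 0.277). HEXA was lost without control 2 or array 2 of crizotinib at 24 h (adjusted p up to 0.105). GLB1 (0.24), GUSB (0.03) and MAN2B1 (0.39) were not called.

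GLA, the alpha-galactosidase deficient in Fabry disease, was the member that fell, and its levels are given because of that. They were 10.98 and 11.05 in control, 10.85, 10.69 and 10.87 at 8 h and 10.53 and 10.67 at 24 h of ciclopirox, and 10.95, 10.88 and 11.02 at 8 h and 10.30 and 10.30 at 24 h of crizotinib. Crizotinib at 8 h overlapped control, and the 24 h arrays of either drug lay below every 8 h and control array. The change at 24 h of crizotinib was -0.72 (SE 0.10, adjusted p = 0.000398, limma).

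Of 4 tested sulphatases, SGSH (0.61, adjusted p = 0.00102) and IDS (0.54, adjusted p = 0.000866, limma), both enzymes of heparan sulphate breakdown, were called higher at 24 h of crizotinib. The arylsulphatases ARSA (0.31) and ARSB (-0.04) were not called. Of the 5 lipid-handling members, 4 were called higher. ASAH1, acid ceramidase, had levels of 6.02 and 6.56 in control, 6.07, 6.25 and 6.21 at 8 h and 6.46 and 6.35 at 24 h of ciclopirox, and 6.22, 5.82 and 6.26 at 8 h and 7.25 and 7.17 at 24 h of crizotinib. The 24 h crizotinib arrays stood above the other 10, which overlapped one another. The change was 0.92 (SE 0.18, adjusted p = 0.00364, limma).

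PSAP, the precursor of the saposins that present sphingolipids to their enzymes, was bright on every array, with 12.25 and 12.24 in control, 11.79, 11.91 and 11.82 at 8 h and 12.35 and 12.14 at 24 h of ciclopirox, and 11.92, 11.90 and 12.16 at 8 h and 13.00 and 13.05 at 24 h of crizotinib. It lay below control at 8 h of either drug and 0.78 above it at 24 h of crizotinib (SE 0.11, adjusted p = 0.000491, limma). LIPA, the acid lipase, was 0.45 higher (adjusted p = 0.0165) and NPC2, which hands cholesterol to NPC1, 0.41 higher (adjusted p = 0.00684, limma). LIPA was lost without control 2 or array 2 of crizotinib at 24 h (adjusted p up to 0.117). SMPD1, acid sphingomyelinase, had a change of 0.22 that was not called.

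Of the 7 V-ATPase subunits, 4 were called higher at 24 h of crizotinib and none lower, with a median of 0.33. ATP6V1H, a regulatory subunit of the cytosolic V1 part, was 9.86 and 9.58 in control, 9.63, 9.36 and 9.50 at 8 h and 9.66 and 9.45 at 24 h of ciclopirox, and 9.66, 9.65 and 9.63 at 8 h and 10.34 and 10.50 at 24 h of crizotinib. The 24 h crizotinib arrays lay above the others, which overlapped control, and the change was 0.70 (SE 0.13, adjusted p = 0.00226, limma). ATP6V0D1 of the membrane part (0.54, adjusted p = 0.00255), the accessory protein ATP6AP1 (0.48, adjusted p = 0.00652) and ATP6V1B2 of the catalytic ring (0.33, adjusted p = 0.0325, limma) were also called. ATP6AP1 was lost without control 1 (adjusted p = 0.0557), and ATP6V1B2 without either control or either 24 h crizotinib array (adjusted p up to 0.166). The other ring subunit ATP6V1A (0.27, adjusted p = 0.0634, limma), the stalk subunit ATP6V1D (0.07) and ATP6V0E1 (0.03) were not called. ATP6V0E1 depends on the probe: a second probe, detected on all 12 arrays, gave 0.33 (adjusted p = 0.095) at 24 h of crizotinib, and at 8 h it passed in the limma fit over all probes with crizotinib (0.71, adjusted p = 0.00951) and ciclopirox (0.47, adjusted p = 0.0395). The probe used here gave -0.01 and -0.10 at 8 h.

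TFE3, the 1 tested transcription factor of the set, had levels of 7.31 and 7.28 in control and 7.29 and 7.35 at 24 h of crizotinib, and the groups overlapped (change 0.02, SE 0.13). MITF, its relative in pigment cells, was near background, at 5.16 and 5.70 in control and 5.48 and 5.35 at 24 h of crizotinib, so a change in it could not be resolved. These are RNA levels, and the place of the factors in the cell was not measured. Of the 10 tested members with the 7-base E-box, 8 were called higher at 24 h of crizotinib, with a median change of 0.69 and a range from -0.04 (ARSB) to 1.79 (CTSF). Among the 20 tested members with a window and no such match, 10 were called higher, with a median of 0.40. Of all tested genes, with or without the match, 15.5% were called higher, and the share among all genes with this E-box was not counted. Tested members without a window are in neither set. This comparison of the 2 sets of members is a description without a test.

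**Figure D5:**
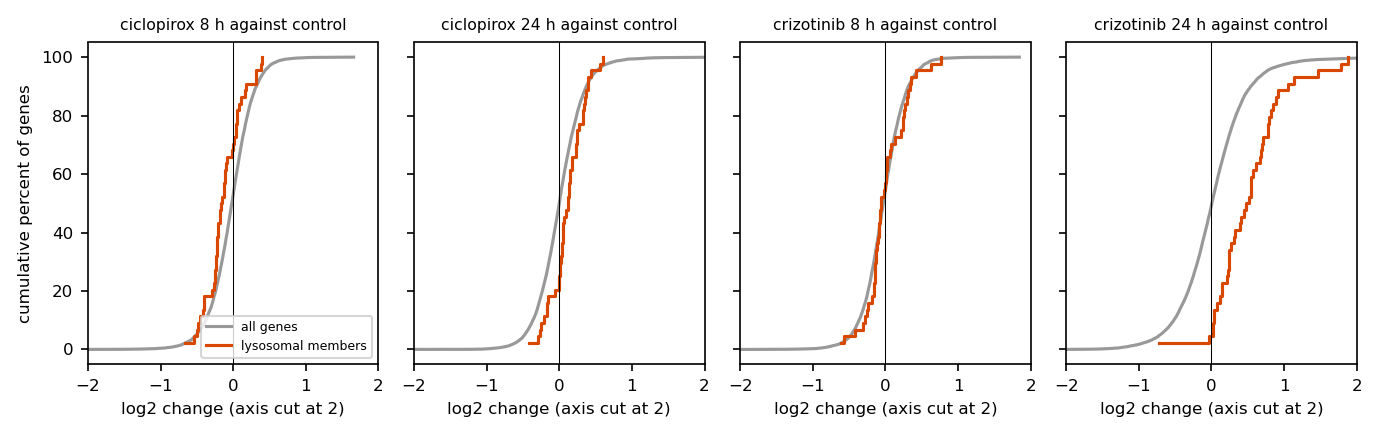
Cumulative percent of the 44 tested lysosomal members (orange) and of all 10330 tested genes (grey) against the log2 change from control, 1 panel per drug and time, with the axis cut at 2. The orange curve lies to the right of the grey curve over most of its length at 24 h of crizotinib, where the medians were 0.50 and 0.01, and slightly to the left at 8 h of ciclopirox, where they were -0.16 and -0.02.

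At 8 h of ciclopirox the members stood slightly below control. The median change was -0.16, against -0.02 for all genes, and 14 of 44 changes were positive. Limma called 4 members lower and 1 higher, beside 6.75% and 4.39% of all tested genes. The lower members were CTSH (-0.50, adjusted p = 0.0402), FUCA1 (-0.48, adjusted p = 0.0293), NAGLU (-0.41, adjusted p = 0.0181) and PSAP (-0.40, adjusted p = 0.0289, limma). NAGLU, given here because it was called, was 8.12 and 8.04 in control and 7.69, 7.59 and 7.72 at 8 h of ciclopirox, without overlap. The V-ATPase subunit ATP6V1D was the member called higher, at 10.87 and 10.82 in control and 11.31, 11.17 and 11.21 at 8 h of ciclopirox (0.38, adjusted p = 0.0261, limma). None of these 5 calls held in every fit that left out 1 array: 0 members were called without control 1 or without control 2, 1 without array 1 of this group and 2 without array 2 or 3. The adjusted p of CTSH ran up to 0.215. With scanner signals scaled over all probes, 0 members were called higher and 14 lower, beside 1.60% and 15.1% of all genes, whose median was -0.15.

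At 24 h of ciclopirox the median member change was 0.12, against -0.00 for all genes, and limma called 4 members higher and 1 lower, beside 5.68% and 4.94% of all tested genes. The members called higher were NEU1 (0.61, adjusted p = 0.0173), NPC1 (0.56, adjusted p = 0.00377), MANBA (0.43, adjusted p = 0.0273) and CD68 (0.36, adjusted p = 0.0358, limma), and GLA was called lower (-0.42, adjusted p = 0.0263, limma). MANBA was 7.81 and 7.67 in control and 8.20 and 8.14 in this group, without overlap. NPC1 was the call that held whichever array was left out, but 0 members were called when only the arrays of these 2 groups were fitted, 1 without the detection filter and 3 with the replicate block. The number of called members was 1 without control 1 or array 2 of this group, and 2 without control 2 or array 1. With scanner signals scaled over all probes, 2 members were called higher and 1 lower, beside 3.01% and 4.70% of all genes, and with value-matched scanner signals 6 were called higher and 1 lower.

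Crizotinib at 8 h gave a median member change of -0.06, against -0.03 for all genes. Limma called 4 members higher and 1 lower, beside 4.45% and 5.34% of all tested genes. GPNMB (0.77, SE 0.12, adjusted p = 0.00628), NEU1 (0.64, adjusted p = 0.0111), NPC1 (0.42, adjusted p = 0.0116) and ATP6V1D (0.35, adjusted p = 0.039) were called higher and CTSH lower (-0.62, adjusted p = 0.0214, limma). Each of these 5 calls was lost without at least 1 array, 0 members were called when only the arrays of these 2 groups were fitted, and 2 were called without the detection filter. Another probe of CTSL, whose main probe gave -0.14, passed in the fit over all probes (0.44, adjusted p = 0.0482, limma). The number of called members was 1 without control 1, 2 without control 2 and 3 without array 2 of this group, and the adjusted p of GPNMB was 0.0567 without control 2. With scanner signals scaled over all probes, 2 members were called higher and 3 lower, beside 1.56% and 15.1% of all genes, whose median was -0.16. With the value-matched scanner signals, 6 were called higher and 0 lower.

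The summed intensity of a list of 12 melanocyte markers moved with time as well. Of its 10 genes in the table, MITF, SOX10 and MC1R were tested, and MLANA, PMEL, TYR, TYRP1, OCA2, SLC45A2 and S100B were detected on no array. The sum was 4056.6 to 4219.5 in control, 2772.1 to 2884.1 and 2672.6 to 2977.4 at 8 h of ciclopirox and crizotinib, and 4204.5 to 4342.3 and 4253.9 to 4405.7 at 24 h. SOX10, a lineage transcription factor at 11.78 and 11.82 in control, makes up most of this sum, so the sum mainly follows 1 gene. SOX10 was called lower at 8 h of ciclopirox (-0.59) and of crizotinib (-0.60). MC1R, at 8.51 and 8.595 in control, was below both controls on every array at 8 h of either drug. Unlike SOX10, it was still lower at 24 h of ciclopirox (8.24 and 8.04), and it was 8.63 and 8.61 at 24 h of crizotinib. The part of these shifts in the lysosomal values at 8 h was not tested. A fibroblast list of 8 genes, of which COL1A1, COL1A2 and THY1 were detected on no array, summed to 299.4 to 308.1 in control and 337.9 to 374.9 at 24 h of crizotinib, without overlap. Its members did not move together: of the 5 tested, LUM was called higher (1.002) and COL6A3 lower, with a median of 0.14. COL6A3 was below background on both arrays of crizotinib at 24 h and on 1 of 2 controls, so no size is given for its fall. The part of these genes in the 24 h values was not tested.

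The change from 8 h to 24 h was upward for many members with either drug. With ciclopirox, 14 of 44 were called higher and 0 lower by limma, beside 12.6% and 8.94% of all tested genes, with a median of 0.26 against 0.01. FUCA1 (0.81), NEU1 (0.77), MANBA (0.69), CTSF (0.63) and NPC1 (0.58) had the largest changes among members above background at both times. GUSB (0.39) and GLB1 (0.38), glycosidases that were not called against control, were among the 14. IDUA, also called, was below background on every array at 8 h. At 24 h it was at 5.74 and 5.23, with only 1 array above background, so no size is given for its rise. Its call did not hold in every fit that left out an array. Without array 1 of ciclopirox at 24 h, 5 members were called, and 5 of the 14 calls held in every fit that left out an array.

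With crizotinib, 30 of 44 were called higher and 2 lower from 8 h to 24 h, beside 21.2% and 17.4% of all tested genes (limma), with a median of 0.43 against 0.03. CTSF (1.45), CTSH (1.44), CD68 (1.15), ASAH1 (1.11), GPNMB (1.11), PSAP (1.03) and GAA (1.01) rose most among members with group means above background at both times, and IDUA rose at least 1.73-fold. CTSH was above background on 2 of its 3 arrays at 8 h. LAMP1 was called in this comparison (0.30, adjusted p = 0.00916, limma), at 11.84, 11.92 and 11.83 at 8 h and 12.18 and 12.14 at 24 h, although not without array 1 of crizotinib at 24 h (adjusted p = 0.0641). The 2 members called lower were GLA (-0.65) and ATP6V1D (-0.28), the second of which was 11.23, 11.30 and 11.07 at 8 h and 10.85 and 10.98 at 24 h. ATP6V1D was lost without array 1 or 2 of crizotinib at 8 h or without either 24 h array (adjusted p up to 0.214, limma).

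The drugs were then set against each other at each time. Because each was given at its own inhibitory concentration, these differences compare the treatments as given. At 8 h, 6 members were called higher with crizotinib and 1 lower, beside 5.15% and 4.87% of all tested genes (limma), with a median of 0.13 against -0.00. NEU1 (0.80), CTSF (0.74), FUCA1 (0.50), NPC1 (0.44), CLN3 (0.43) and CTSD (0.40) were higher, and ARSA was called lower (adjusted p = 0.0302). ARSA was at 5.14, 4.83 and 5.38 with crizotinib and 5.54, 6.14 and 5.86 with ciclopirox. Only 1 of the 3 crizotinib arrays was above background, so no size is given for the difference. The number of called members was 3 without array 1 of crizotinib, and 4 without array 1 or array 3 of ciclopirox. With scanner signals scaled over all probes it was 3, all higher.

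At 24 h, 26 members were called higher with crizotinib and 1 lower, beside 12.3% and 11.8% of all tested genes (limma), with a median of 0.43 against 0.00. GPNMB (1.64, SE 0.14, adjusted p = 2.79e-05), CTSF (1.56), CTSH (0.98), ATP6V1H (0.87), NEU1 (0.86) and ASAH1 (0.81) differed most, and GLA was lower (-0.30, adjusted p = 0.0475, limma). LAMP2 (0.44) and CTSL (0.41), which were not called against control, were called here. Other probes of LAMP2 gave 0.07 to 0.49, apart from a probe near background that gave -0.13. Other probes of CTSL gave 0.10 and 0.52. The number of called members was 14 without array 2 of ciclopirox, and 16 without array 1 or without array 2 of crizotinib. With scanner signals scaled over all probes, 10 members were called higher and 1 lower, beside 6.82% and 18.5% of all genes. GLA held in 1 of the 12 fits that left out an array.

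The test of the difference between the drugs in the change from 8 h to 24 h called 10 members, 9 of them higher with crizotinib and 1 lower, beside 5.36% and 5.98% of all tested genes (limma). The median difference was 0.14, against 0.01 for all genes, but -0.02 against -0.13 with scanner signals scaled over all probes, where 3 members were called higher and 1 lower. GPNMB differed most, with a change of -0.16 in ciclopirox and 1.11 in crizotinib, a difference of 1.26 (SE 0.18, adjusted p = 0.00189, limma). The number of called members was 5 without array 2 of ciclopirox at 24 h or array 1 of crizotinib at 24 h, and 4 without array 2 of crizotinib at 24 h. GPNMB, CTSH, CD68 and NAGLU were the 4 that held in every fit that left out an array. NEU1 (0.06), NPC1 (0.05) and FUCA1 (0.01) had differences that were not called, with rises from 8 h to 24 h of 0.77, 0.58 and 0.81 in ciclopirox and 0.83, 0.63 and 0.83 in crizotinib.

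Lysosomal genes outside the set, from lists written out by function, were read in the same limma fit at 24 h of crizotinib. Their counts stand beside 15.5% of all tested genes called higher and 15.5% lower, with a median of 0.01. Of 12 further V-ATPase subunits tested, 6 were called higher and none lower, with a median of 0.35: ATP6V1F (0.52), the accessory protein ATP6AP2 (0.46), ATP6V1E1 (0.41), ATP6V0E2 (0.38), TCIRG1 (0.38) and ATP6V0A1 (0.31). Of 19 further lysosomal enzymes, 6 were called higher and 1 lower (median 0.33). RNASET2, a ribonuclease, was 1.14 higher and DPP7, a dipeptidase, 1.12 higher, while the thioesterase PPT2 was lower (-0.56). Of 14 further membrane proteins, 4 were called higher and none lower (median 0.32), among them the channel MCOLN3 (0.92), the chloride transporter CLCN7 (0.79) and the cystine exporter CTNS (0.62).

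Of 7 tested genes that sort enzymes to the lysosome, 5 were called higher and 1 lower at 24 h of crizotinib (median 0.60). SUMF1, which activates all sulphatases, was 0.70 higher, GNPTG, which helps to make the mannose 6-phosphate tag, 0.69, and the tag's receptors IGF2R and M6PR 0.62 and 0.42. The adaptor GGA2 was lower (-0.54). Of 11 tested genes of the platform on which mTORC1 is switched on at the lysosome, 6 were called higher and none lower (median 0.41). FNIP1, a partner of folliculin, was 1.38 higher, and the Rag GTPases RRAGD and RRAGC were 1.27 and 1.02 higher. At 8 h of crizotinib, 4 of the 11 were called higher and none lower, beside 4.45% and 5.34% of all tested genes: FNIP1 (1.38), RRAGC (0.64), FLCN, which encodes folliculin (0.60), and LAMTOR3 (0.43). In the other 5 lists 4 genes were called higher at that time, 2 of 19 enzymes, 1 of 7 sorting genes and 1 of 11 genes of the MITF family and autophagy.

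Of 11 tested genes of the MITF family and of autophagy, 6 were called higher and none lower at 24 h of crizotinib (median 0.36), including WIPI1, which acts on forming autophagosomes (1.39), the autophagy receptor SQSTM1 (1.18) and GABARAPL1 (0.61). At 24 h of ciclopirox, 3 of these 11 genes were called higher, WIPI1 (0.85), GABARAPL1 (0.55) and MAP1LC3B (0.37), beside 5.68% of all tested genes. The other lists were near that share, with 1 of 12 V-ATPase subunits (ATP6AP2, 0.33), 1 of 19 enzymes (the peptidase SCPEP1, 0.50) and 0 of 14 membrane proteins, 0 of 7 sorting genes and 0 of 11 genes of the mTORC1 platform called higher. GGA2 was called lower (-0.54, limma). All members of these lists were read with the earlier results of these data known, so they give no independent support to the values of the set.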

How the data were processed

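Total RNA of 12 labelled A375 samples was hybridised to Illumina bead arrays. The deposited scanner table holds, per the file headers, a mean signal intensity with its detection p-value for 47231 probes on each array, and GenomeStudio is the tool named in the submitters' processing notes. The authors also deposited a normalized intensity for 38220 of these probes on a linear scale, with the normalization method not given in the sources used here. Signals had been background-subtracted, since 28.8% were below 0.

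Log2 of the normalized intensity was taken for probes with detection p-value under 0.01 on at least 2 arrays (16563 probes), and the brightest probe named each gene. The platform annotation gave 27002 probes 1 symbol, 4 several and 11214 none. Group means over the 12 arrays (7 residual degrees of freedom) were fitted with limma 3.58.1 (R 4.3.3), two-sided, with Benjamini-Hochberg adjustment over 10330 genes in each of 9 comparisons. In simulated data for crizotinib at 24 h against control, 79% of changes of 1 and 33% of changes of 0.5 (log2) were recovered over 10330 genes. The simulation changed 100 genes at each size. In the data 1599 genes were called higher and 1605 lower, so recovery there may differ. Members called against control with a change of at least 0.8 are given by array, and the others given by array were chosen after their values were seen. The number of arrays limits the precision. Members and lists were chosen with earlier results of these data known. Alternatives covered the filter, offset, probe choice, arrays fitted, tables, normalization, replicate block and leaving out each array.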

Additional observations from a re-analysis of the deposited data

Results flagged for a closer look

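In 10 members limma called a difference between the drugs in how the level changed over time, from 8 h to 24 h, in a direct test adjusted over all genes. GPNMB differed by 1.26 (adjusted p = 0.00189), CTSH by 1.10 (adjusted p = 0.00578) and ASAH1 by 0.88 (adjusted p = 0.0375, limma). For CTSF the difference was 0.83 (adjusted p = 0.0292), for CD68 0.79 (adjusted p = 0.00279) and for ATP6V1H 0.72 (adjusted p = 0.0197, limma). NAGLU differed by 0.69 (adjusted p = 0.00774), PSAP by 0.63 (adjusted p = 0.019) and SGSH by 0.55 (adjusted p = 0.0189, limma). GLA differed in the opposite direction, by -0.44 (adjusted p = 0.0479, limma).

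The changes behind these differences, in ciclopirox and then in crizotinib, were -0.16 and 1.11 for GPNMB, 0.34 and 1.44 for CTSH, 0.23 and 1.11 for ASAH1, 0.63 and 1.45 for CTSF and 0.36 and 1.15 for CD68. They were 0.06 and 0.77 for ATP6V1H, 0.16 and 0.85 for NAGLU, 0.40 and 1.03 for PSAP, -0.02 and 0.53 for SGSH and -0.21 and -0.65 for GLA. With 1 array left out, GLA was called in 1 of 12 fits, ASAH1 in 5, CTSF in 6, SGSH and PSAP in 9 and ATP6V1H in 10.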

How the results depend on the processing

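The numbers of called members ran over these ranges when 1 array was left out: 0 to 5 for ciclopirox at 8 h against control, 1 to 5 for ciclopirox at 24 h, 1 to 5 for crizotinib at 8 h, 21 to 27 for crizotinib at 24 h, 5 to 15 for ciclopirox from 8 h to 24 h, 24 to 32 for crizotinib from 8 h to 24 h, 3 to 8 for crizotinib against ciclopirox at 8 h, 14 to 27 at 24 h, and 4 to 11 for the drug difference in the change. A group left with 1 array is assumed to vary like the others. In the same order, the counts were 0, 1, 2, 25, 9, 27, 3, 19 and 4 without a detection filter, where more genes share the adjustment. With the arrays of the compared groups alone, where fewer arrays give the spread, they were 3, 0, 0, 22, 13, 30, 3, 15 and 10. With the added median scaling over all probes, chosen after seeing the data, they were 14, 3, 5, 18, 17, 24, 3, 11 and 4, and the cause was not tested. With scanner signals named by the descriptions they were 2, 0, 0, 0, 0, 0, 17, 0 and 0. With detection on at least 6 arrays, an offset of 16, the mean of probes, a fit over all probes, and value-matched scanner signals (neqc or median scaled), every count stayed within 1.5 times the count reported.

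Of 35 single results followed, 17 changed sign, each under the description names. At 8 h of ciclopirox CTSH became 0.53, FUCA1 0.65, NAGLU 0.25 and PSAP 0.56. At 24 h of crizotinib CTSF became -0.17, NEU1 -0.21 and CD68 -0.10. From 8 h to 24 h of ciclopirox FUCA1 became -0.42, NEU1 -0.36 and IDUA -0.96, and of crizotinib CTSF became -0.23 and IDUA -0.28. Between the drugs NEU1 became -0.67 and CTSF -1.15 at 8 h, and GPNMB -0.21, CTSF -0.52 and CTSH -0.025 at 24 h.

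Arrays with the same replicate number did not deviate together from their group means: over 21 same-numbered pairs r ran from -0.0971 to 0.0802, none over 0.1. The highest mean r was with arrays of the same number for 3 of 12 arrays. In groups of 2 arrays the 2 deviations mirror each other, so the 21 pairs are not separate checks. With the replicate block the counts were 7, 3, 4, 27, 15, 30, 5, 27 and 8. Other probes of the called members went the same way in 7 of 7 cases for crizotinib at 24 h against control and in 13 of 15 between the drugs at 24 h. Groups of 2 or 3 arrays leave small changes unresolved, and members near background, such as IDUA and ARSA, are the least certain.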
